A study of Homo sapiens with 7 samples.

Results

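The genes described here encode the initiation and elongation factors of cytosolic protein synthesis, together with the inhibitors and modifying enzymes whose symbols carry the same stems. Members were all protein-coding genes with a symbol beginning EIF1 to EIF6, EEF1 or EEF2, without the EIF2AK kinases and EEF1E1. Of the 60675 genes in the deposited count table, 66 met this rule. The symbol rule also brought in EIF1AD, 2 readthrough loci and the methyltransferases that act on elongation factors, which are not translation factors themselves.

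In initiation, eIF2 brings the initiator tRNA to the small ribosomal subunit, eIF3 holds the complex together, and the cap-binding assembly eIF4F (the cap binder eIF4E, the helicase eIF4A and the scaffold eIF4G) loads it onto messenger RNA. eIF1, eIF1A and eIF5 control the choice of the start codon, and eIF5B joins the large subunit. In elongation, eEF1A delivers aminoacyl-tRNA, its partner eEF1B reloads it with GTP, eEF2 moves the ribosome along, and eIF5A helps at difficult peptide bonds. Cancer cells often depend on eIF4F, and the eIF4E-binding proteins hold it back unless mTORC1 phosphorylates them.

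Libraries were made from RNA of MDA-MB-231, an established line of human breast cancer cells of the triple-negative kind. One group received control siRNA (siCTL, genotype label DEPDC1 WT, n = 3 libraries) and the other siRNA against DEPDC1 (siDEPDC1, label DEPDC1 KD, n = 4), both with Lipofectamine RNAiMAX in Opti-MEM. The medium was changed after 8 h and the cells were collected after 2 days. A single cell line was used, and neither the siRNA sequences nor the number of duplexes is given in the sources used here. Whether replicates were separate cultures is not stated in the labels. The p-values below therefore reflect the variation among these 7 libraries and no more, and that variation may be technical.

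Library totals ran from 7690583 to 15360409 counts. DEPDC1, a gene of dividing cells and the siRNA target, averaged 118 ± 3.20 CPM (counts scaled to a common library size; SD, n = 3) in siCTL and 13.3 ± 1.43 CPM (n = 4) in siDEPDC1, so every library matched its label. Of the markers of this line, VIM averaged 3713 CPM in siCTL and CD44 403 CPM, and ESR1 and PGR were below 1 CPM in every library. AXL and MSN averaged 1093 and 1241 CPM in siCTL and were not called. EGFR, listed as present, fell from 562 to 462 CPM (edgeR adjusted p = 0.00018). EPCAM, a low marker by the list, averaged 10.4 CPM in siCTL and 11.6 CPM in siDEPDC1 and was not called. KRT8, listed as a low marker, was at 740 CPM in siCTL and 898 CPM in siDEPDC1 (edgeR adjusted p = 0.00055), and CDH1, another, fell from 1.11 to 0.372 CPM (edgeR adjusted p = 0.0030). Among the 8 markers of other cells, COL1A1 rose from 12.9 to 30.2 CPM (edgeR adjusted p = 5.4e-13), PECAM1 averaged 12.9 and 11.3 CPM, CD14 rose from 2.06 to 3.25 CPM (edgeR adjusted p = 0.028), and ACTA2 lay below 5 CPM. PTPRC, CD3E, VWF and ALB lay below 2 CPM. Their part in the results below was not tested.

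Most translation factor genes stayed near their control level, and a few moved clearly. Of the 66 members, 60 passed the filter on low counts, and 10 of these were lower and 8 higher after DEPDC1 siRNA (quasi-likelihood test of edgeR, p adjusted over all tested genes and under 0.05). These are 16.7% and 13.3% of the tested members. Over all 16583 tested genes the same rule called 17.9% lower and 16.5% higher, or 34.4% in either direction, so the members were called about as often as genes in general. The single role groups and lists below hold 2 to 14 tested genes each, and their counts are to be read beside these shares. The number of higher members depended on single libraries. It was 13 without siDEPDC1 replicate 1, and 4 when replicate 1 or 3 of siCTL or replicate 2 or 3 of siDEPDC1 was left out. With scaling by library size alone, 7 members were lower and 12 higher. The median log2 fold change was -0.0083 over the tested members and 0.00094 over all tested genes, and the median absolute change was 0.12 against 0.19. The tested members had a median of 107 CPM and all tested genes 19.3 CPM, so these values do not compare genes of equal abundance. In bulk RNA, fewer cells of a kind and less RNA per cell cannot be told apart.

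The called members with the largest changes came from several roles. EIF4G3, a scaffold paralog, fell 1.68-fold, EIF4EBP2, an inhibitor of eIF4E, 1.48-fold, and the eEF1A methyltransferase gene EEF1AKMT2 and the eIF3 subunit gene EIF3J 1.35-fold each, while EIF4E2, a paralog of the cap binder, rose 1.30-fold. EIF5, EIF4G2 and EIF3D fell 1.23-fold to 1.27-fold. EIF4G3 was the only called member past 1.5-fold in either direction, where 4.59% of all tested genes were called and at least 1.5-fold lower and 3.79% called and at least 1.5-fold higher. In all 18 called members the groups did not overlap. Among the 60 tested members 14 had every siDEPDC1 library below every siCTL library and 11 had every one above, against 19.6% and 17.7% of all tested genes, or 37.3% together.

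**Figure D1:**
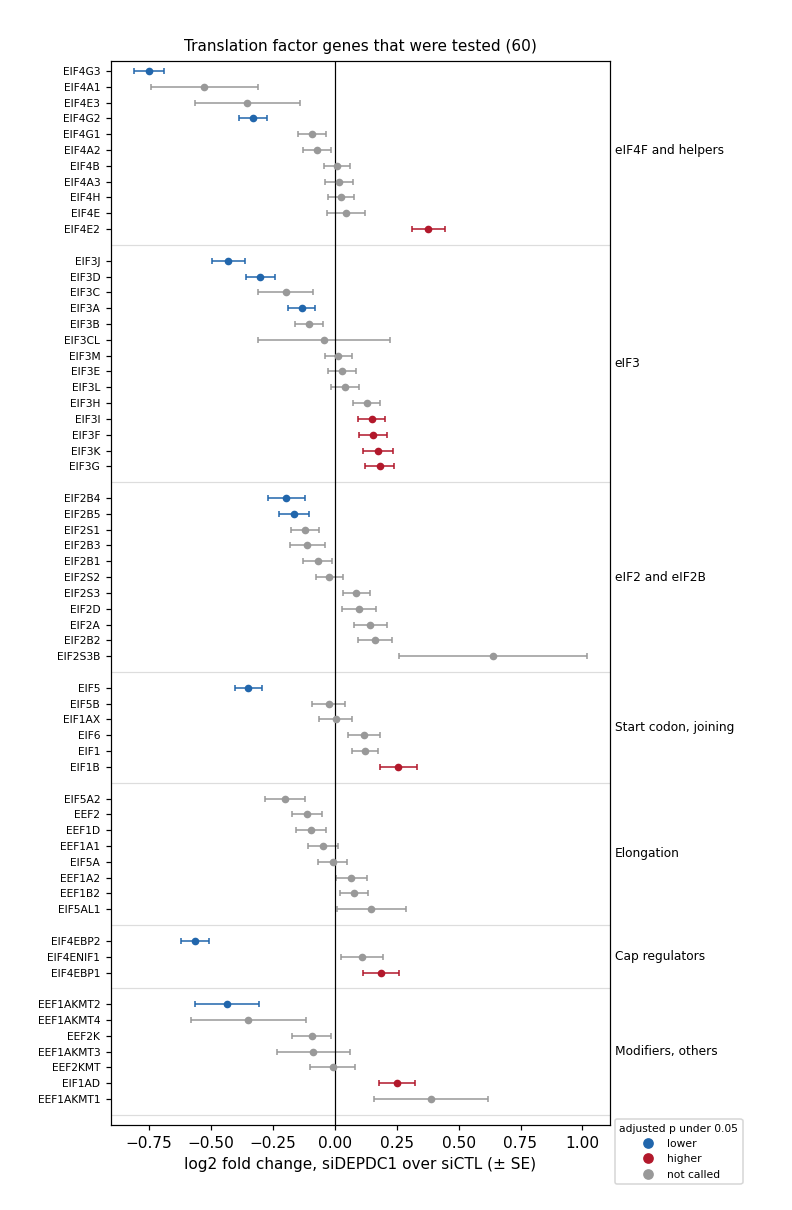
Log2 fold change (siDEPDC1 over siCTL, horizontal axis, ± SE) of the 60 tested members, grouped by role and ordered by value within each group. Blue points were lower and red points higher at an adjusted p under 0.05, and grey points were not called. EIF4G3 lies lowest, at -0.75, and EIF4E2 is the highest called member, at 0.38. The grey points with long bars are genes with few counts.

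Some called members share a 7-base word, GATAACT, with other genes that fell in this comparison. An earlier analysis picked the word from fold changes of these same libraries, so the counts that follow describe the members and support nothing. A single GENCODE 29 transcript per gene was searched on the transcript strand. The word lay somewhere in the transcript of 7 tested members, of which 5 were called lower, 2 were not called and none was called higher. Over all tested genes with such a transcript, 1662 (13.2%) held it, and 46.1% of these were called lower and 9.33% higher. In the 3' UTR alone, 3 of 57 searched members held it, beside 949 of 12320 tested genes. All 7 sites are shown, those of the 5 called carriers and the 2 that were not called, so that their place and flanks can be compared. Each line gives the spliced transcript 5′ to 3′ with the word in capitals, and the GRCh38 position is that of the word.

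EIF4G3, coding, minus strand, chr1:20807321-20807327: ggagtctgagGATAACTaaaacttcaa
EIF4G2, coding, minus strand, chr11:10801016-10801022: ttcagccccaGATAACTatgattcctc
EIF3J, coding, plus strand, chr15:44550876-44550882: ggacgtcaagGATAACTgggatgacga
EIF5, 3' UTR, plus strand, chr14:103342352-103342358: cacaagagttGATAACTtcctcatgaa
EEF1AKMT2, 3' UTR, minus strand, chr10:124760057-124760063: tggtaaagttGATAACTatttatgaat
EIF4A2, coding, plus strand, not called, chr3:186784585-186784591: tgagattgttGATAACTttgatgatat
EIF2B1, 3' UTR, minus strand, not called, chr12:123620766-123620772: gacatcaaagGATAACTgaagcccagg

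The bases around the word differ between the 7 sites, and coding and 3' UTR sites occur among called and not called carriers alike. EIF4EBP2 and EIF3D, which fell as well, had no copy in the transcript searched, and EIF4A2 carried it in its coding sequence with a log2 fold change of -0.07. Whether the word plays a part in any of these changes was not tested.

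In the eIF4F group, 2 of 11 tested genes were lower and 1 was higher. The scaffold paralogs separated. EIF4G3 (ENSG00000075151; GRCh38 chromosome 1, 20806292 to 21176888), which can take the place of eIF4G1 in eIF4F, was at 107, 111 and 114 CPM in siCTL and at 70.5, 62.4, 61.9 and 67.7 CPM in siDEPDC1. All 4 siDEPDC1 libraries lay far below the 3 controls, with a log2 fold change of -0.75 ± 0.061 (SE; edgeR adjusted p = 4.5e-12). EIF4G2 (chromosome 11, 10797050 to 10809110), a shorter relative that lacks the eIF4E-binding part and serves cap-independent initiation, was at 1308, 1250 and 1325 CPM in siCTL and 1035, 1060, 1059 and 966 CPM in siDEPDC1. It fell by 0.33 ± 0.056 on the log2 scale (edgeR adjusted p = 1.5e-05), again without overlap. EIF4G1, the main scaffold, was at 888, 833 and 825 CPM in siCTL and 758, 775, 818 and 835 CPM in siDEPDC1, where the groups overlapped and the difference was not called (log2 fold change -0.09, edgeR adjusted p = 0.21).

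Set against EIF4G1 within each library, which removes the scaling between libraries, EIF4G3 had 13.1 ± 0.898 counts per 100 EIF4G1 counts in siCTL (SD, n = 3) and 8.26 ± 0.742 in siDEPDC1 (SD, n = 4). EIF4G2 had 153 ± 7.07 and 130 ± 9.89 counts per 100. Per kilobase of transcript, the siCTL level was highest for EIF4G2 (324 CPM), followed by EIF4G1 (154 CPM) and EIF4G3 (19.1 CPM). The order was the same per kilobase of coding sequence, at 476, 177 and 23.3 CPM.

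Among cap binders, EIF4E2 (chromosome 2, 232550052 to 232583644), which binds the cap and can act with GIGYF2 in repression, was at 68.0, 65.7 and 73.8 CPM in siCTL and at 79.9, 94.4, 92.0 and 92.4 CPM in siDEPDC1. All siDEPDC1 libraries were higher, replicate 1 least so, and the log2 fold change was 0.38 ± 0.065 (SE; edgeR adjusted p = 2.2e-05). Of the annotated exon bases of EIF4E2, 24.2% are also annotated to genes on the opposite strand, and the strand setting of the counting is not known. EIF4E itself was at 36.1, 42.0 and 39.8 CPM in siCTL and 42.5, 43.2, 40.0 and 36.4 CPM in siDEPDC1, with overlapping groups (log2 fold change 0.04, edgeR adjusted p = 0.69). EIF4E2 had 177 ± 17.7 counts per 100 EIF4E counts in siCTL and 223 ± 27.4 in siDEPDC1, where replicate 1 overlapped the controls. EIF4E3, another cap binder, had 13 to 40 counts per library and was at 2.58, 2.63 and 2.78 CPM against 2.05, 2.58, 1.69 and 1.78 CPM and was not called (edgeR adjusted p = 0.20).

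The helicase genes and their helpers did not pass the test. EIF4A2 was at 345, 358 and 386 CPM in siCTL and 362, 356, 347 and 316 CPM in siDEPDC1 (log2 fold change -0.07, edgeR adjusted p = 0.35). EIF4A3, the paralog in the exon junction complex, was at 121, 117 and 113 CPM and then 113, 120, 122 and 118 CPM (0.02, edgeR adjusted p = 0.84). The helicase cofactors EIF4B and EIF4H had log2 fold changes of 0.0075 and 0.026. EIF4A1, the major helicase of eIF4F, had only 28 to 67 counts in siCTL and 20 to 33 in siDEPDC1, and 48.6% of its annotated exon bases are also annotated to other genes on the same strand, among them SENP3-EIF4A1. Its log2 fold change was -0.53 ± 0.216 (SE; edgeR adjusted p = 0.056). The fall was called without siCTL replicate 1 (edgeR adjusted p = 0.043) and without siCTL replicate 3 (0.014), but shrank to -0.21 without siCTL replicate 2 (0.56). Reads shared with overlapping genes may have been split or dropped in counting, so neither the level nor the change of EIF4A1 is certain.

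The inhibitors that compete with eIF4G for eIF4E went in opposite directions. EIF4EBP2 (ENSG00000148730; chromosome 10, 70404379 to 70428618) was at 184, 171 and 181 CPM in siCTL and 122, 117, 127 and 117 CPM in siDEPDC1. The groups were far apart and the log2 fold change was -0.56 ± 0.056 (SE; edgeR adjusted p = 4.6e-10). EIF4EBP1 was at 36.6, 37.7 and 35.9 CPM in siCTL and 38.6, 42.6, 42.2 and 43.7 CPM in siDEPDC1, a small rise of 0.19 on the log2 scale (edgeR adjusted p = 0.040). That call was lost without any 1 of the libraries except siDEPDC1 replicate 1 (edgeR adjusted p from 0.070 to 0.11 in these). EIF4EBP2 fell from 487 ± 28.8 to 290 ± 22.3 counts per 100 EIF4EBP1 counts. EIF4EBP3 was not tested, with 0 to 5 counts per library, and 73.4% of its exon bases are shared with ANKHD1-EIF4EBP3. EIF4ENIF1, the eIF4E transporter, was not called (log2 fold change 0.11).

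**Figure D2:**
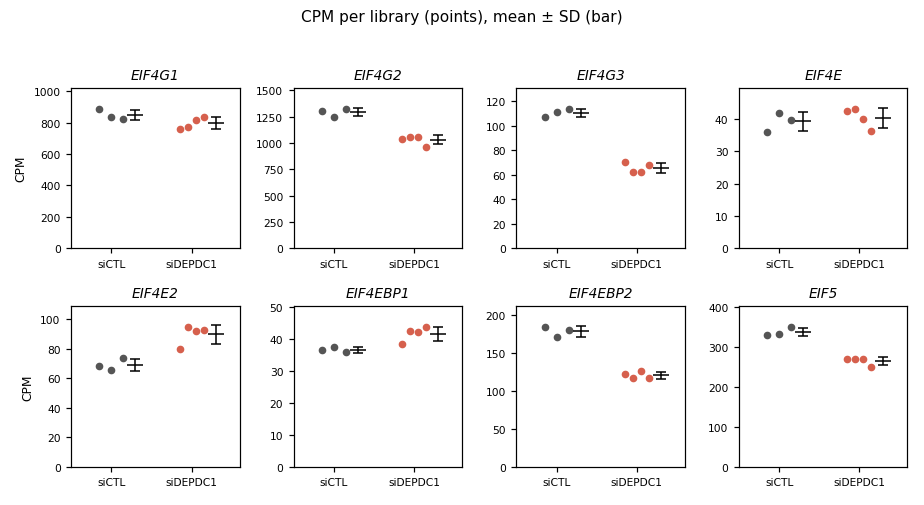
CPM (vertical axes, starting at 0) of 8 members in each library, with siCTL in grey and siDEPDC1 in red. Points are libraries and black bars the mean ± SD. EIF4G3, EIF4EBP2, EIF4G2 and EIF5 lie lower in every siDEPDC1 library and EIF4E2 lies higher, while EIF4G1 and EIF4E overlap between the groups.

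Of 14 tested eIF3 genes, 3 were lower and 4 higher. These are 21.4% and 28.6%, beside 17.9% and 16.5% of all tested genes. EIF3J, the loosely held subunit that sits in the decoding centre, was at 69.6, 66.6 and 71.6 CPM in siCTL and 51.0, 56.4, 51.1 and 46.6 CPM in siDEPDC1 (log2 fold change -0.43 ± 0.067 SE, edgeR adjusted p = 4.4e-06). EIF3D, the subunit that can itself bind a cap, was at 211, 211 and 196 CPM and then 155, 164, 173 and 179 CPM (-0.30 ± 0.057, edgeR adjusted p = 9.1e-05). For both genes the siDEPDC1 libraries lay wholly below the controls. EIF3A, the large scaffold subunit, was at 621, 608 and 643 CPM and then 574, 574, 581 and 544 CPM, a call at the threshold (-0.13, edgeR adjusted p = 0.049).

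The 4 eIF3 genes that rose did so by small steps. EIF3G was at 175, 174 and 167 CPM in siCTL and 175, 201, 205 and 199 CPM in siDEPDC1 (log2 fold change 0.18 ± 0.058 SE, edgeR adjusted p = 0.015). EIF3K was at 99.7, 99.2 and 89.8 CPM and then 101, 113, 109 and 112 CPM (0.18, edgeR adjusted p = 0.023). In both, siDEPDC1 replicate 1 lay just above the highest control. EIF3F and EIF3I rose by 0.15 each on the log2 scale (edgeR adjusted p = 0.030 and 0.033).

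The small eIF3 changes rested on single libraries. The EIF3G call was lost when replicate 3 of either group was left out (edgeR adjusted p = 0.061 for siCTL and 0.058 for siDEPDC1), and that of EIF3K without siCTL replicate 3 or siDEPDC1 replicate 2 (0.15 and 0.081). The EIF3A call was lost without any 1 library except siDEPDC1 replicate 1, with an edgeR adjusted p of up to 0.18. EIF3F and EIF3I lost theirs without any 1 siCTL library and without siDEPDC1 replicate 2 or 3 (edgeR adjusted p up to 0.17 for each). EIF3J and EIF3D stayed called in all of these.

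The other tested eIF3 genes were not called. EIF3B, which binds the small subunit together with EIF3A and EIF3G, was at 366, 348 and 327 CPM and then 306, 321, 338 and 326 CPM (log2 fold change -0.10, edgeR adjusted p = 0.14). EIF3E, EIF3H, EIF3L and EIF3M ranged from 0.015 to 0.13. EIF3H lay higher in every siDEPDC1 library than in any control, and it was called higher without siDEPDC1 replicate 1 or 4 (edgeR adjusted p = 0.030 and 0.041). EIF3C and its near-identical copy EIF3CL averaged 15.2 ± 1.92 and 1.78 ± 0.643 CPM in siCTL. Per kilobase of transcript EIF3C was at 4.83 CPM, while the 12 other eIF3 genes ranged from 26.0 to 188 CPM. Per kilobase of coding sequence EIF3C was at 5.54 CPM, and these 12 genes ranged from 64.6 CPM (EIF3L) to 268 CPM (EIF3I). Reads that match both EIF3C and EIF3CL may have been split or dropped in counting, so neither level is certain. EIF3C was called lower, at -0.32, without siDEPDC1 replicate 2 (edgeR adjusted p = 0.038).

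**Figure D3:**
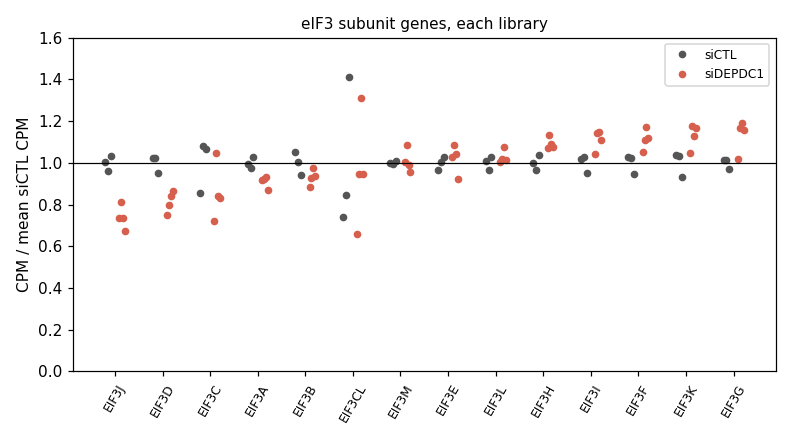
CPM of each eIF3 gene in each library divided by the gene's mean siCTL CPM (vertical axis, starting at 0), with siCTL in grey and siDEPDC1 in red, ordered by fold change. EIF3J and EIF3D lie lowest in siDEPDC1, and EIF3G, EIF3K, EIF3F, EIF3I and EIF3H, the last not called, lie a little above 1. EIF3CL scatters widely at 1.78 CPM.

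In the genes of eIF2, its exchange factor eIF2B and the other carriers of initiator tRNA, 2 of 11 were lower and none higher by edgeR. At an unadjusted p under 0.05 there were 3 lower and 2 higher, DESeq2 called none, and limma-voom called the same numbers as edgeR. Both called genes encode subunits of eIF2B, which reloads eIF2 with GTP. EIF2B5, the catalytic subunit, was at 91.8, 92.2 and 83.0 CPM in siCTL and 75.8, 78.1, 82.2 and 81.8 CPM in siDEPDC1 (log2 fold change -0.17, edgeR adjusted p = 0.032). EIF2B4, a regulatory subunit, was at 28.9, 31.2 and 30.6 CPM and then 25.9, 25.9, 26.0 and 27.7 CPM (-0.20, edgeR adjusted p = 0.042). In both genes the groups stood apart, by little. EIF2B5 lost its call without any 1 of 5 libraries (siCTL replicates 1 and 2 and siDEPDC1 replicates 1 to 3, edgeR adjusted p up to 0.16). EIF2B4 lost it without any 1 of 6 libraries, all but siDEPDC1 replicate 4 (up to 0.16).

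The remaining eIF2 genes were not called. EIF2S1, the subunit phosphorylated in the integrated stress response, was at 178, 176 and 187 CPM in siCTL and 168, 172, 171 and 154 CPM in siDEPDC1 (log2 fold change -0.12, edgeR adjusted p = 0.10). EIF2S2 was at 204, 200 and 209 CPM and then 201, 212, 208 and 185 CPM (-0.02, edgeR adjusted p = 0.80). The other eIF2B genes had log2 fold changes of -0.11 (EIF2B3), -0.07 (EIF2B1) and 0.16 (EIF2B2), so the signs were mixed among the eIF2B genes. EIF2B2 was called higher without siCTL replicate 2 (edgeR adjusted p = 0.045) and also without siDEPDC1 replicate 1 (0.019), and EIF2A, which can bring initiator tRNA by another route, without siDEPDC1 replicate 4 (0.016). EIF2S3B, a copy of EIF2S3, showed 0.64 from only 6 to 24 counts per library and was not called (edgeR adjusted p = 0.20).

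Among the genes of start codon choice and subunit joining, EIF5 fell and EIF1B rose, of 6 tested. EIF5 (ENSG00000100664; chromosome 14, 103333544 to 103345025), which triggers GTP hydrolysis on eIF2 at the start codon, was at 329, 333 and 349 CPM in siCTL and 270, 270, 270 and 249 CPM in siDEPDC1. It fell by 0.35 ± 0.054 on the log2 scale with no overlap (edgeR adjusted p = 3.6e-06). EIF1 and its paralog EIF1B oppose eIF5 at weak start codons. EIF1B was at 28.4, 27.8 and 28.1 CPM and then 31.7, 36.0, 33.1 and 32.8 CPM (log2 fold change 0.26 ± 0.075 SE, edgeR adjusted p = 0.0076). EIF1 was at 357, 367 and 359 CPM and then 382, 405, 389 and 396 CPM, without overlap but not called (0.12, edgeR adjusted p = 0.068). It passed without siDEPDC1 replicate 1 (edgeR adjusted p = 0.025).

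EIF5 had 93.4 ± 3.29 counts per 100 EIF1 counts in siCTL and 67.4 ± 3.51 in siDEPDC1 (SD, n = 3 and 4). EIF1AX, EIF5B and EIF6, of which EIF6 keeps the ribosomal subunits apart, were not called, with log2 fold changes from -0.025 to 0.12. EIF6 passed without siDEPDC1 replicate 1 (edgeR adjusted p = 0.010). EIF1AY did not pass the count filter.

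No elongation gene was called among 8 tested by edgeR, nor by DESeq2 or limma-voom, and 1 was lower at an unadjusted p under 0.05. Of all tested genes edgeR called 34.4% in either direction, and 8 genes are too few to set against that share. EEF1A1 took 0.659% to 0.679% of all counts in siCTL and 0.626% to 0.684% in siDEPDC1. It was at 6712, 6844 and 6789 CPM in siCTL and 6125, 6795, 6617 and 6678 CPM in siDEPDC1, with overlap (log2 fold change -0.05, edgeR adjusted p = 0.57). EEF1A2, the paralog normally found in muscle and neurons and raised in some tumours, was at 137, 137 and 122 CPM and then 124, 134, 143 and 153 CPM (0.07, edgeR adjusted p = 0.45). EEF1A1 exceeded EEF1A2 per kilobase of transcript in siCTL, at 1527 against 65.4 CPM, and per kilobase of coding sequence, at 4893 against 94.9 CPM. EEF2 was at 863, 846 and 750 CPM and then 705, 729, 778 and 823 CPM (-0.11, edgeR adjusted p = 0.16), but was called lower without siCTL replicate 3 (-0.17, edgeR adjusted p = 0.040).

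EIF5A, the hypusine-bearing factor, was at 636, 626 and 590 CPM in siCTL and 546, 634, 642 and 633 CPM in siDEPDC1 (log2 fold change -0.0088, edgeR adjusted p = 0.93). Its paralog EIF5A2 was at 26.5, 25.1 and 27.1 CPM and then 22.5, 24.1, 24.5 and 20.3 CPM, where the groups did not overlap and the difference narrowly missed the threshold (-0.20, edgeR adjusted p = 0.054). EEF1B2 and EEF1D, exchange factors for eEF1A, had log2 fold changes of 0.079 and -0.096, and EEF1B2 was called higher without siDEPDC1 replicate 1 (edgeR adjusted p = 0.045). EIF5AL1, a copy of EIF5A at 10.3 CPM in siCTL, was called higher without siCTL replicate 3 (log2 fold change 0.38, edgeR adjusted p = 0.022) and not otherwise. EEF1G, the third subunit of that complex, had 0 counts in every library, which allows up to 0.195 to 0.390 CPM by counting error alone. Of its annotated exon bases 99.9% are shared with ENSG00000255508, which had 30 to 70 counts per library, so the 0 does not show that the gene is silent.

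Of 7 tested modifying enzymes and other matched genes, 1 was lower and 1 higher. EEF1AKMT2, a lysine methyltransferase of eEF1A, was at 8.99, 7.88 and 7.82 CPM in siCTL and 6.75, 6.26, 5.99 and 5.35 CPM in siDEPDC1 (log2 fold change -0.43 ± 0.130 SE, edgeR adjusted p = 0.0087). Of its annotated exon bases 14.9% are shared with another gene on the same strand. EIF1AD was at 34.1, 35.8 and 38.8 CPM and then 44.4, 43.8, 42.5 and 41.4 CPM (0.25, edgeR adjusted p = 0.0061). Both lost their call without siCTL replicate 1 (edgeR adjusted p = 0.065 and 0.056). EEF2K, the kinase that inhibits eEF2, was at 24.5, 25.9 and 24.6 CPM and then 23.3, 23.8, 24.0 and 22.8 CPM, lower in every siDEPDC1 library but not called (-0.09, edgeR adjusted p = 0.37).

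The members together took 1.76 ± 0.0107% of each library's counts in siCTL (SD, n = 3) and 1.73 ± 0.0431% in siDEPDC1 (SD, n = 4). The siDEPDC1 share was lowest in replicate 1, at 1.67%, and reached 1.77% in replicate 2, so the groups overlapped. The difference between the group means was smaller than the SD of the siDEPDC1 libraries. Without EEF1A1 the other members took 1.09% to 1.10% in siCTL and 1.04% to 1.09% in siDEPDC1, where every siDEPDC1 library lay below every control, the closest pair at 1.087% and 1.085%. No test was made of either share, and both include the uncertain counts of EIF4A1, EIF3C and EEF1G. Besides EIF1AY and EIF4EBP3, the members not tested were EIF4E1B, EEF1G, EEF1E1-BLOC1S5 and EEF1AKMT4-ECE2, each with 0 counts throughout.

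Around these factors, 7 lists of other genes of the pathway held 67 genes, of which 65 were tested, 16 were lower and 9 higher. These are 24.6% and 13.8%, beside 17.9% and 16.5% of all tested genes. The mTORC1 and MNK list had 5 lower and 2 higher of 14. MTOR, the kinase itself, was at 118, 105 and 107 CPM in siCTL and 82.6, 70.5, 87.0 and 80.7 CPM in siDEPDC1 (log2 fold change -0.46, edgeR adjusted p = 7.3e-07). TSC1, part of the complex that restrains mTORC1, fell by 0.46 as well (edgeR adjusted p = 1.0e-06), RPS6KB1, a kinase downstream, by 0.40, and RHEB, the activating GTPase, by 0.33. The genes that fell include activators and an inhibitor of mTORC1. RPTOR and MLST8, its partner subunits, were not called (log2 fold changes 0.02 and 0.14). RPS6KB2, the paralog of RPS6KB1, rose by 0.27 (edgeR adjusted p = 0.0031) and PDCD4 by 0.20 (0.029). The PDCD4 call was lost without replicate 1 or 2 of either group. LARP1, also among the lower genes, fell by 0.15 (edgeR adjusted p = 0.022). Its call was lost without siCTL replicate 1 or 3 and without siDEPDC1 replicate 2 or 3.

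The selenocysteine factors both fell. EEFSEC, the elongation factor for selenocysteine, was at 18.9, 20.3 and 18.9 CPM in siCTL and 10.4, 14.5, 13.8 and 13.7 CPM in siDEPDC1 (log2 fold change -0.56, edgeR adjusted p = 3.3e-05). SECISBP2, which recognises the selenocysteine signal, was at 55.4, 51.3 and 55.6 CPM and then 41.1, 38.8, 36.7 and 42.2 CPM (-0.44, edgeR adjusted p = 5.0e-06). In both genes all siDEPDC1 libraries were below all controls.

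Of 10 termination and recycling genes, 3 were lower and 1 higher. ETF1, the release factor that reads stop codons, fell by 0.21 on the log2 scale (edgeR adjusted p = 0.0031), ABCE1, which splits the ribosome, by 0.20 (0.010) and GSPT2 by 0.48 from 6.15 CPM (0.018), while MCTS1, which helps recycling, rose by 0.28 (0.00077). ABCE1 and GSPT2 lost their call without siDEPDC1 replicate 4 (edgeR adjusted p = 0.051 and 0.063), and GSPT2 also without siCTL replicate 3 (0.15). Of 10 genes for poly(A) binding and eIF4E partners, 3 were lower and 1 higher. The helicase gene DDX3X fell from 449 ± 11.2 to 363 ± 22.3 CPM (edgeR adjusted p = 4.2e-05) and CYFIP1 by 0.20, whereas PAIP2, an inhibitor of poly(A)-binding protein, rose by 0.19. PAIP2 was no longer called without siCTL replicate 1 (edgeR adjusted p = 0.091) and likewise without siDEPDC1 replicate 2 (0.062). GIGYF2, the partner of EIF4E2, fell by 0.17 (edgeR adjusted p = 0.035), a call lost without any 1 siCTL library and without siDEPDC1 replicate 2 or 4 (up to 0.14).

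Of the 9 genes for eIF2 alpha kinases and phosphatases, 2 were higher and none lower by edgeR. PPP1CC, a catalytic subunit, rose from 239 ± 8.52 to 280 ± 14.9 CPM (edgeR adjusted p = 0.0015), and PPP1R15A, the stress-induced subunit, by 0.22 on the log2 scale (0.011). PPP1R15A lost its call when replicate 3 of either group was left out (edgeR adjusted p = 0.053 for siCTL and 0.059 for siDEPDC1). None of the 4 eIF2 alpha kinase genes was called by edgeR or limma-voom, DESeq2 called 1 higher, and at an unadjusted p under 0.05 there was 1 lower and 1 higher. In hypusine and diphthamide synthesis, where eIF5A and eEF2 receive their unusual residues, DPH6 fell from 7.47 ± 0.394 to 4.64 ± 0.669 CPM, DPH5 rose by 0.34 and DPH3 by 0.24, and DHPS and DOHH, which make hypusine, were not called. Of 11 mitochondrial translation factors, GFM2 fell by 0.33 and MTIF2 by 0.29, and MTRFR rose by 0.32 (edgeR adjusted p = 0.00035, 0.0019 and 0.0015).

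**Figure D4:**
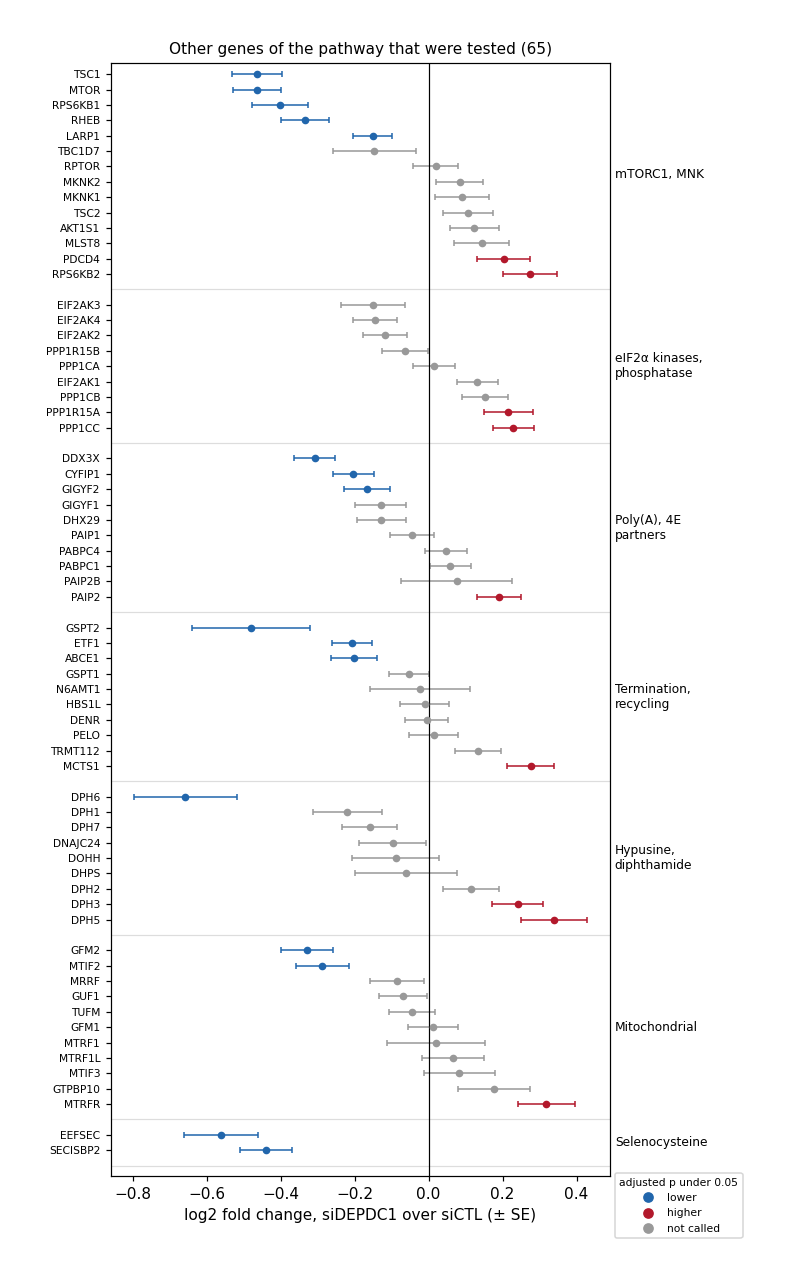
Log2 fold change (siDEPDC1 over siCTL, horizontal axis, ± SE) of the 65 tested genes of the 7 other lists, in the colours of the plot of members. DPH6 lies lowest, at -0.66, both selenocysteine genes are lower, and the mTORC1 list runs from -0.46 to 0.27.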

How the data were processed

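RNA from 7 libraries of MDA-MB-231 cells was analysed from the deposited table of raw counts per Ensembl gene, 1 column per library, whole numbers with unequal totals. The submitters' processing notes name the build GRCh38 and list STAR 2.7.9a, FastQC and DESeq2 without saying what each did. No source used here gives the counter, the annotation release or the strand setting, so overlapping genes cannot be separated with certainty.

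Members and lists were chosen with earlier results of these data known. Symbols came from a table matched by Ensembl ID, and coordinates, exon overlaps and transcripts from GENCODE 29, which may not be the release used in counting. One coding transcript per gene was kept (best APPRIS rank, then longest coding sequence, then longest transcript), and 3' UTRs of at least 50 bases were searched.

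Counts passed edgeR's filterByExpr by group (16583 genes) and went into the two-sided quasi-likelihood test of edgeR 4.0.16 under R 4.3.3 (TMM factors, robust glmQLFit). The model held group alone, and p-values were adjusted over all tested genes (Benjamini-Hochberg, threshold 0.05). CPM use TMM-scaled library sizes, and the SE comes from the quasi-likelihood F. The test was checked on simulated counts. Values in every library were given for called members (up to 4 per role by adjusted p), the 2 most abundant per role and the paralog sets. In the other lists up to 4 called genes per list were named by adjusted p, some by fold change only. RPS6KB2, PDCD4 and LARP1 were named as well. Alternatives were DESeq2 size factors, library size alone, no filter, at least 50 counts, DESeq2 1.42.0, limma-voom (limma 3.58.1), a replicate block, the same 6 libraries without it, each library left out and, chosen after seeing the data, summing of overlapping rows.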

Additional observations from a re-analysis of the deposited data

Results flagged for a closer look

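In 35 sets of 4 siDEPDC1 values (34 members and the share of counts they take), the gap of the highest or lowest library to its neighbour was compared with the whole range, and 4 exceeded Dixon's 95% critical value for 4 libraries. Chance alone would mark about 1 set in 20. EIF5 had a ratio of 0.973, with siDEPDC1 replicate 4 at 249 CPM below 3 libraries at 270 CPM, and without it the log2 fold change was -0.32 (edgeR adjusted p = 1.5e-05). For EIF2B4 the ratio was 0.929, with replicate 4 highest at 27.7 CPM, and the log2 fold change without it was -0.22 (edgeR adjusted p = 0.027). EIF5A had a ratio of 0.911, with replicate 1 lowest at 546 CPM, and 0.046 without it (edgeR adjusted p = 0.51). For EIF4E2 it was 0.830, with replicate 1 lowest at 79.9 CPM, and 0.43 without it (edgeR adjusted p = 6.6e-07).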

How the results depend on the processing

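Of the 18 called members, 8 were called under all 16 alternatives (EIF4G3, EIF4EBP2, EIF5, EIF3J, EIF4G2, EIF4E2, EIF3D and EIF1B) and 10 lost the call under at least 1. None of the 18 changed sign, and 10 members that were not called passed under at least 1 alternative. With no count filter, 4 members were higher, and the number lower was 9. Leaving out 1 library gave 7 to 10 members lower and 4 to 13 higher, with 13 higher in the absence of siDEPDC1 replicate 1. With library size alone, 7 members were lower and 12 higher, so that 63.2% of called members were higher, against 44.4% with TMM factors. That share was 55.0% with at least 50 counts. Equal replicate numbers did not deviate together (Pearson r across genes -0.12, -0.042 and 0.0030), and unequal numbers gave -0.18 to 0.11. With 3 and 4 libraries and counting noise in each gene, these values cannot tell whether equal numbers share a culture or day. With a replicate block on the 6 libraries numbered 1 to 3, 6 members were lower and 4 higher, against 9 and 9 in these libraries without the block. Summing overlapping rows changed the calls of EEF1G alone, at 0.50 (edgeR adjusted p = 0.030), with every count from ENSG00000255508. Of 25 called genes of the other lists, 18 were called under all 16 alternatives. Low counts limit EIF4A1, EIF4E3, EIF2S3B, EIF3CL and the methyltransferase genes most.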

Other observations

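Rows named as pseudogenes of the members held some of the counts of this family. The 49 EEF1A1 pseudogene rows together had 1406 to 2344 counts per library, which is 1.67% to 2.97% of the EEF1A1 count, and 53.7% of these counts fell in EEF1A1P5. Of 13 such rows that were tested, none was called by edgeR. The 13 EIF4A1 pseudogene rows held 64 to 121 counts per library, more than the 20 to 67 counts of EIF4A1 itself. The 8 EEF1G pseudogene rows held 5 to 12 counts per library while EEF1G was at 0.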
